A study of Mus musculus with 9 samples.

Results

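The 8 genes described here encode the receptor chains through which T cells bind IL-2, IL-4, IL-6, IL-15 and IL-21: Il2ra, Il2rb, Il2rg, Il4ra, Il15ra, Il21r, Il6ra and Il6st. They were chosen by name, as the rows of the expression table that carry these symbols, and they are 8 of its 41388 genes. All 8 passed the minimum level for testing, a mean normalized count of 10 over the libraries, as did 11599 genes in all. A normalized count is the number of reads assigned to a gene, divided by a factor that corrects for the depth of the library.

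The cells were CD8+ T cells of C57BL/6 mice, taken from lymph nodes and spleen, sorted in the naive state (CD62L+CD44-) and primed under Tc17 conditions, that is toward IL-17-producing CD8+ T cells. All cultures lasted 2 days on plate-bound anti-CD3 (5 µg/ml) with anti-CD28 (0.5 µg/ml), recombinant human IL-2 (50 U/ml), TGF-β (0.5 ng/ml), IL-6 (30 ng/ml) and anti-IFN-γ (5 µg/ml). Hence, IL-2 and IL-6, ligands of receptors described here, were supplied to every group. The groups were Ctrl, with 0.2% DMSO, DMF, with 20 µM dimethyl fumarate, and DMF + GSH, with 20 µM DMF and 50 µM glutathione. The labels leave unclear whether the cultures with DMF also held the 0.2% DMSO. DMF is an oral drug for multiple sclerosis that reacts with thiols and depletes glutathione, and GSH is the cell's main thiol antioxidant. Each group had 3 libraries, numbered as replicates 1 to 3, and number 1 belonged to batch 1 and numbers 2 and 3 to batch 2 in all groups. The labels do not say whether the replicates came from separate mice or cultures, thus p-values measure the spread between these samples. The comparisons ask how DMF alters transcripts of these chains in Tc17 cells and what added GSH does to that difference.

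Cytokine receptors of this class have no kinase of their own. Ligand binding brings chains together, the Janus kinases bound to them become active, and STAT proteins are phosphorylated and move to the nucleus. IL-2 and IL-15 share the signalling chains encoded by Il2rb (CD122) and Il2rg (the common gamma chain), and each has a private alpha chain, Il2ra (CD25) or Il15ra, which raises affinity. IL-2 signals mainly through STAT5, which opposes IL-17 production in T cells. IL-6 binds the chain encoded by Il6ra and then gp130, encoded by Il6st, and signals mainly through STAT3, which drives the type 17 programme. IL-21, which signals through Il21r and the common gamma chain, also uses STAT3, and IL-4 signals through Il4ra and STAT6.

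Each library held between 7671772 and 14511926 reads assigned to genes, and the chains were covered unevenly. Il2ra had 6378 to 21228 reads per library, Il6ra 356 to 911 and Il15ra only 35 to 119, so counting error is largest for Il15ra. The 7 CD8 T cell markers summed to 28152 to 35878 normalized counts, with Cd8a the most abundant, and Cd4 was near 0 (mean 1.97 in Ctrl). With the replicate block, a limma model explained below, 1 of these markers rose in DMF (Cd8a, log2 fold change 0.31) and 4 fell (Cd3g -0.53, Cd28 -0.50, Cd3d -0.34 and Cd3e -0.23). That model called 33.2% of all genes tested. With GSH 4 rose and 2 fell against DMF, where it called 29.2%. With the batch term limma called 0 of the 7 in either comparison, with 3 and 5 at an unadjusted p under 0.05. Of all genes tested it called 7.19% and 0.819%. The type 17 cytokines Il17a and Il17f summed to 2888 to 4476 normalized counts in Ctrl, 753 to 1936 in DMF and 2971 to 4978 in DMF + GSH. Myeloid markers were low but stood apart in 1 library: their sum was 186 in Ctrl replicate 3, against 2.08 and 11.1 in the other Ctrl libraries, 2.12 to 18.4 in DMF and 12.6 to 17.6 in DMF + GSH. Of the 6 measured myeloid markers, S100a8 and S100a9 were at 0 in every library. The 5 dendritic cell markers summed to 64.0 to 88.2 in Ctrl, 18.0 to 23.2 in DMF and 41.8 to 82.5 in DMF + GSH. Most of this was Xcr1, a chemokine receptor, which fell by 2.05 on the log2 scale in DMF (limma adjusted p = 0.00297) and rose by 1.65 with GSH (0.0094), while Flt3, Siglech and Clec9a were near 0. Itgax, which was under the minimum for the test, had 7.11 to 15.8 normalized counts in Ctrl, 2.57 to 5.81 in DMF and 5.94 to 7.70 in DMF + GSH, and the DMF libraries overlapped neither of the other groups. Xcr1 thus moved in the direction of Il6ra and Il6st, and the part of cells other than T cells in the values of the chains was not tested. The cultures were started from cells sorted as CD8+ CD62L+CD44-, a gate meant to leave such cells out, and whether any remained was not tested. In these bulk samples, fewer cells with a transcript and less transcript per cell cannot be told apart.

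To compare the chains with each other, levels were expressed as RPKM (reads assigned to the gene, scaled to its exon length and to the library total). In Ctrl, Il2rb was the most abundant chain (204 ± 14.8 RPKM; mean ± SD, n = 3, as below), followed by Il2ra (140 ± 40.4) and Il2rg (118 ± 14.6). Il21r (64.0 ± 3.91) and Il4ra (46.8 ± 2.27) formed a middle range. The IL-6 receptor chains were lower, with Il6st at 19.6 ± 3.25 and Il6ra at 7.66 ± 2.39 RPKM, and Il15ra was the lowest at 1.39 ± 0.329 RPKM. Il2ra and Il2rg overlapped in Ctrl (114 to 186 against 102 to 129 RPKM), whereas all other neighbours in this order were separated in every library. In DMF the order changed at 1 place: Il2ra (282 ± 62.6 RPKM) stood above Il2rb (202 ± 17.9), although their ranges overlapped (210 to 321 against 184 to 219). With GSH added, the order was that of Ctrl again, with Il2rb at 202 ± 9.57 and Il2ra at 135 ± 43.3 RPKM.

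**Figure D1:**
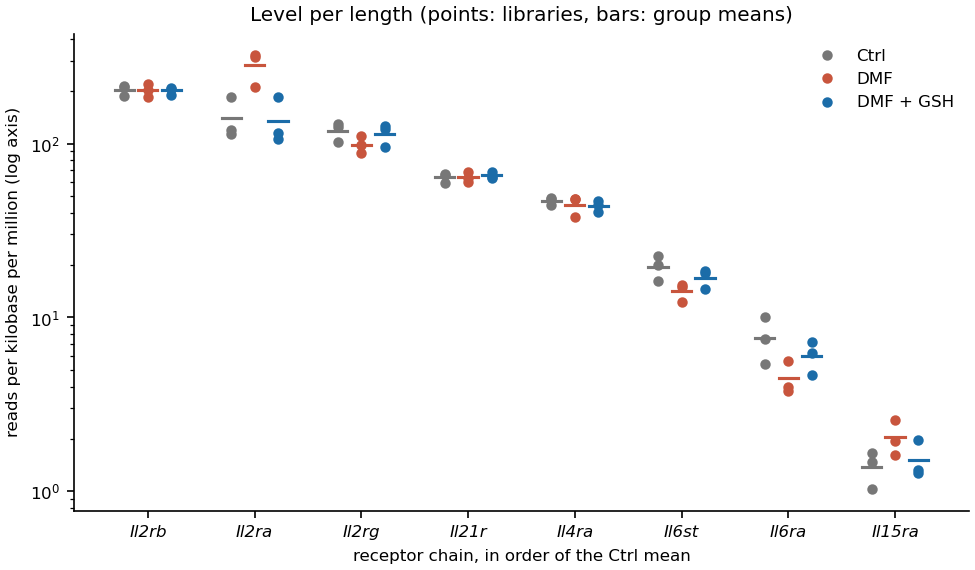
Level per length of each receptor chain in RPKM, on a log axis, with 1 point per library and a bar at the mean of each group (n = 3). In Ctrl the chains spanned from 1.39 RPKM for Il15ra to 204 RPKM for Il2rb, and Il2ra and Il2rb were the only chains to trade places in the order of means, with Il2ra first in DMF and Il2rb first in Ctrl and DMF + GSH.

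The genes lie at 6 places in the mouse genome (GRCm38; all are protein-coding), 2 of which hold a pair of neighbours. Il2ra (chromosome 2, 11642807 to 11693193) and Il15ra (11705290 to 11734317) are both on the plus strand, 12096 bases apart with no annotated gene between them. Il4ra (chromosome 7, 125552120 to 125579474) and Il21r (125603429 to 125633570) are likewise plus-strand neighbours, 23954 bases apart. Il2rb lies on the minus strand of chromosome 15 (78479256 to 78495271), Il2rg on the minus strand of chromosome X (101264378 to 101268255), Il6ra on the minus strand of chromosome 3 (89864059 to 89913196) and Il6st on the plus strand of chromosome 13 (112464070 to 112510086). Exons of Il4ra and Il6ra overlap those of antisense genes (Gm44876 and Gm42809, not analysed here), and the library kit does not mark the strand, so reads of such partners cannot be told apart from their own. Gm20489, which shares exon sequence with Il2rg, had a mean normalized count of only 0.158.

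Promoter sequence is shown for the neighbours Il2ra and Il15ra, which were higher in DMF, and for the IL-6 receptor pair Il6ra and Il6st, which were lower. These are the 250 bases before the transcript start from RefSeq (GRCm38.p6), written in the direction of transcription, with motif matches in capitals.
Il2ra, chr2:11642542-11642791, plus strand: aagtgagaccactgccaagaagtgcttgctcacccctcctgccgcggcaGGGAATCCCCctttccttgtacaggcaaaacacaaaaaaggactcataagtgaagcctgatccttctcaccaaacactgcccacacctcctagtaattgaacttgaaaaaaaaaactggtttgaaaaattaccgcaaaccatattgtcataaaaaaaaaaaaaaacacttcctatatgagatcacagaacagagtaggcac
Il15ra, chr2:11705043-11705292, plus strand: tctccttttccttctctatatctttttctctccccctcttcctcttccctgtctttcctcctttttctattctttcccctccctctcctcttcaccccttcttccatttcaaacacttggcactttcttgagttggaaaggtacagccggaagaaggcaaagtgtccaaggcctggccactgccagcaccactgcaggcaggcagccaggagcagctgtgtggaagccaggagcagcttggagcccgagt
Il6ra, chr3:89913197-89913446, minus strand: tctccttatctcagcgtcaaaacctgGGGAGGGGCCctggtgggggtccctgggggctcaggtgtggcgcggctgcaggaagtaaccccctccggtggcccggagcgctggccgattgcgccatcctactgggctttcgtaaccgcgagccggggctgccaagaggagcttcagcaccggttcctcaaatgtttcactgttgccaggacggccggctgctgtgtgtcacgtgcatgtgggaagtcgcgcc
Il6st, chr13:112463820-112464069, plus strand: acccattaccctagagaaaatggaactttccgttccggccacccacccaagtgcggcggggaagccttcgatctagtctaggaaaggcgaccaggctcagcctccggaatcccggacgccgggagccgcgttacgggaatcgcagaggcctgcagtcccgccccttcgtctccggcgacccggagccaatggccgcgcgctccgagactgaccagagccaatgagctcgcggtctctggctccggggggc

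Of the 8 genes, 7 matched an entry, with 8 windows in all, since Il15ra has 2 start sites and Il2rb no entry. Both strands were searched for 4 motifs: STAT (TTCNNNGAA), the antioxidant response element read by NRF2 (ARE, TGACNNNGC), FOXO (GTAAACA) and NF-κB (GGGANNNNCC). The Il2ra window held an NF-κB match, GGGAATCCCC, 201 bases before the start, and the Il6ra window held another, GGGAGGGGCC, 224 bases before the start, while the windows printed for Il15ra and Il6st had no match to any of the motifs. Among the others, Il4ra and the second Il15ra window each held an ARE match, and Il21r an NF-κB and a FOXO match that do not overlap. None of the 8 windows held the STAT letters. Of 32851 promoter windows of the same length, 17.6% held the NF-κB letters, 10.2% the ARE, 7.02% the STAT and 3.17% the FOXO letters, so a match is a description of the sequence and neither a bound site nor a cause.

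Differences between groups were tested with limma on log2(normalized count + 1) over all 11599 genes, with batch as a term, and a gene was called at a Benjamini-Hochberg adjusted p below 0.01 with no minimum fold. Same-numbered libraries of different groups shared deviations from their means, so a second limma model, in which the number takes the place of batch (the replicate block), is given beside it where the call differs. Comparing DMF with Ctrl, 7.19% of all genes tested were called with the batch term and 33.2% with the replicate block. Of the 8 chains, 1 was called with the batch term (Il6ra, lower) and 5 with the replicate block (Il2ra and Il15ra higher, Il2rg, Il6ra and Il6st lower). The median log2 fold change of the chains was -0.02, against 0.01 over all genes, and the median size of the change, regardless of direction, was 0.34 against 0.23. The groups did not overlap for 3 chains, Il2ra, Il15ra and Il6st, and 41.3% of all genes tested showed no overlap either. The sign was the same in all 3 replicate numbers for 5 chains (Il2ra, Il15ra, Il2rg, Il6ra and Il6st), as it was for 66.3% of all genes tested. These counts are thus to be read against a wide response, and the members are described singly below.

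**Figure D2:**
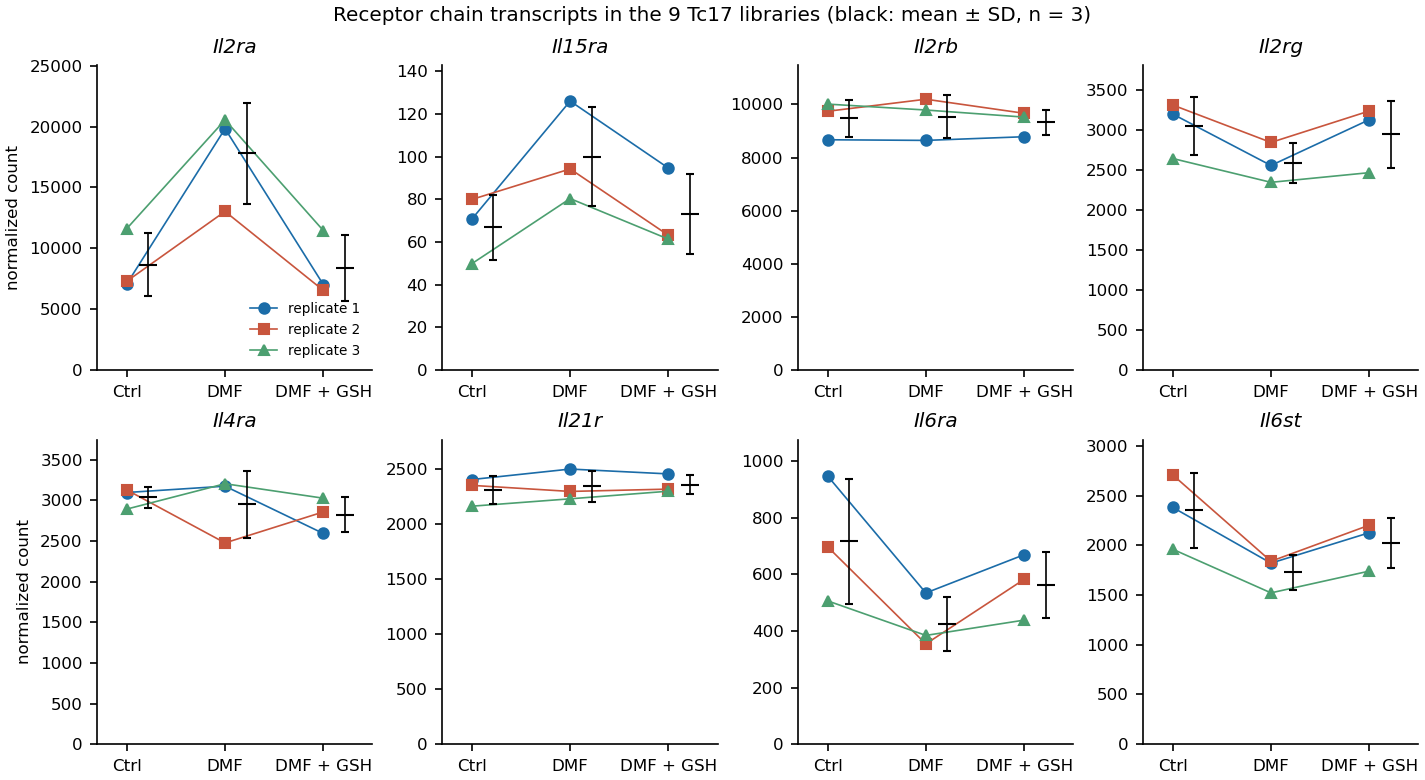
Normalized counts of the 8 receptor chains in each of the 9 libraries, with axes from 0 and a line joining the libraries that share a replicate number; black marks are the mean ± SD of each group (n = 3). Il2ra goes from 7067 to 19821 in replicate 1, from 7288 to 13025 in replicate 2 and from 11612 to 20545 in replicate 3 and lies at 6537 to 11456 in DMF + GSH, whereas the lines of Il2rb and Il21r are nearly level.

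Il2ra, the alpha chain that turns the intermediate-affinity IL-2 receptor into the high-affinity one, showed the largest difference among the 8 chains. Its normalized count was 7067, 7288 and 11612 in Ctrl replicates 1 to 3 and 19821, 13025 and 20545 in DMF. Every DMF library was above every Ctrl library, and replicate 3 was the highest in each group. With GSH added, Il2ra was at 7017, 6537 and 11456, inside or close to the Ctrl range in each library. The log2 fold change of DMF against Ctrl was 1.05 (2.07-fold), and by replicate number it was 1.49, 0.84 and 0.82. With the batch term the change missed the threshold (SE 0.258, limma adjusted p = 0.017), whereas with the replicate block Il2ra rose (SE 0.0937, adjusted p = 7.14e-08). From DMF to DMF + GSH the log2 fold change was -1.11, and again only the fit with the replicate block called it (adjusted p = 5.99e-08, against 0.0179 with the batch term). With the block both calls held in all 9 fits that left out 1 library. With the batch term that of DMF against Ctrl appeared without Ctrl replicate 3 (adjusted p = 0.00723), DMF replicate 2 (0.00513) or DMF + GSH replicate 3 (0.00807). Between DMF + GSH and Ctrl, Il2ra differed by -0.06 on the log2 scale (95% interval -0.64 to 0.51 with the batch term and -0.26 to 0.13 with the replicate block).

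High Il2ra also marks regulatory T cells. Their transcription factor Foxp3 moved with Il2ra: it had 756 ± 180 normalized counts in Ctrl, 1938 ± 785 in DMF and 659 ± 246 in DMF + GSH (log2 fold change of DMF against Ctrl 1.29, limma adjusted p = 0.0221 with the batch term and 1.06e-07 with the replicate block). Cd4 was near 0 in the same libraries (1.97 ± 1.71, 1.03 ± 1.06 and 2.61 ± 1.57), and Zbtb7b, the factor that fixes the CD4 lineage, was at 58.3 ± 12.6, 71.1 ± 14.3 and 57.2 ± 20.7. The sum of these 3 markers, nearly all Foxp3, was 634 to 961 in Ctrl and 1121 to 2526 in DMF. The part of Foxp3-expressing cells in the Il2ra values was not tested.

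Il15ra encodes the alpha chain that presents IL-15, mostly in trans from other cells. It had 70.7, 79.9 and 49.8 normalized counts in Ctrl, 126, 94.2 and 80.3 in DMF and 94.6, 63.1 and 61.3 in DMF + GSH. The lowest DMF library lay just above the highest Ctrl library. The log2 fold change of DMF against Ctrl was 0.58 (1.49-fold; 0.82, 0.23 and 0.68 by replicate number), with an adjusted p of 0.0523 with the batch term (limma). Il15ra rose only with the replicate block, at an adjusted p of 0.00948, close to the threshold. Of 9 such fits that each left out 1 library, 2 kept the call (without Ctrl replicate 2 or DMF + GSH replicate 2), and the adjusted p reached 0.0796 without Ctrl replicate 1. With edgeR and the same block the adjusted p was 0.0117. With GSH added the log2 fold change against DMF was -0.45, which neither fit called (adjusted p = 0.0396 with the replicate block). Although Il2ra and Il15ra are neighbours in the genome, their levels per length were far apart (140 and 1.39 RPKM in Ctrl), and over the 9 libraries their log2 values had a Pearson correlation of 0.36, given as a description since the libraries share groups and batches.

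The signalling chains that IL-2 and IL-15 share did not follow their alpha chains. Il2rb, the beta chain, was nearly level, with 8669, 9742 and 10012 normalized counts in Ctrl, 8645, 10196 and 9789 in DMF and 8783, 9666 and 9522 in DMF + GSH. Its log2 fold change of DMF against Ctrl was 0.01, with a 95% interval of -0.13 to 0.15 with the batch term, and of DMF + GSH against DMF -0.03 (-0.17 to 0.10). Il2rb was thus measured closely, and a change of the size of that of Il2ra lies outside its interval. Il2rg, the common gamma chain that also serves IL-4, IL-7, IL-9 and IL-21, had 3200, 3313 and 2644 normalized counts in Ctrl, 2557, 2845 and 2346 in DMF and 3129, 3238 and 2467 in DMF + GSH. The groups overlapped, and the DMF library was the lowest of the 3 with each replicate number. The log2 fold change of -0.24 (-0.32, -0.22 and -0.17 by replicate number) was not called with the batch term (limma adjusted p = 0.168), and with the replicate block Il2rg fell (adjusted p = 0.00142). The call with the block was lost without Ctrl replicate 1 (adjusted p = 0.01) or DMF replicate 1 (0.0164). With GSH added it was 0.18 above DMF on the log2 scale, which missed the threshold in both limma fits (adjusted p = 0.0108 with the replicate block) and passed it in edgeR with the block (0.00802). This difference with the batch term was 0.09 without DMF + GSH replicate 2 and 0.30 without DMF + GSH replicate 3.

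As Il2ra and the shared chains moved differently, their ratios within a library were compared, using levels per length. The ratio of Il2ra to Il2rb was 0.612, 0.562 and 0.871 in Ctrl, 1.72, 0.959 and 1.58 in DMF, and 0.600, 0.508 and 0.903 in DMF + GSH. Such a ratio depends on the lengths used and is no count of molecules. With the length of the longest transcript, the mean levels of Il2ra and Il2rb were 181 and 209 RPKM in Ctrl and 366 and 207 RPKM in DMF. Relative to Il2rg, Il2ra was at a ratio of 1.23 ± 0.528 in Ctrl, 2.94 ± 0.912 in DMF and 1.24 ± 0.608 in DMF + GSH. In both pairs all DMF libraries exceeded all Ctrl libraries. The log2 ratio was 1.04 higher in DMF than in Ctrl for Il2ra to Il2rb and 1.29 higher for Il2ra to Il2rg, each at a p of 0.1 in an exact two-sided permutation test of 3 against 3 libraries, the smallest p this design allows, and 0.2 after adjustment over the 6 ratios compared. For Il15ra to Il2rb the log2 ratio was 0.57 higher in DMF (exact p = 0.1), and for Il21r to Il2rg 0.26 higher (exact p = 0.2).

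**Figure D3:**
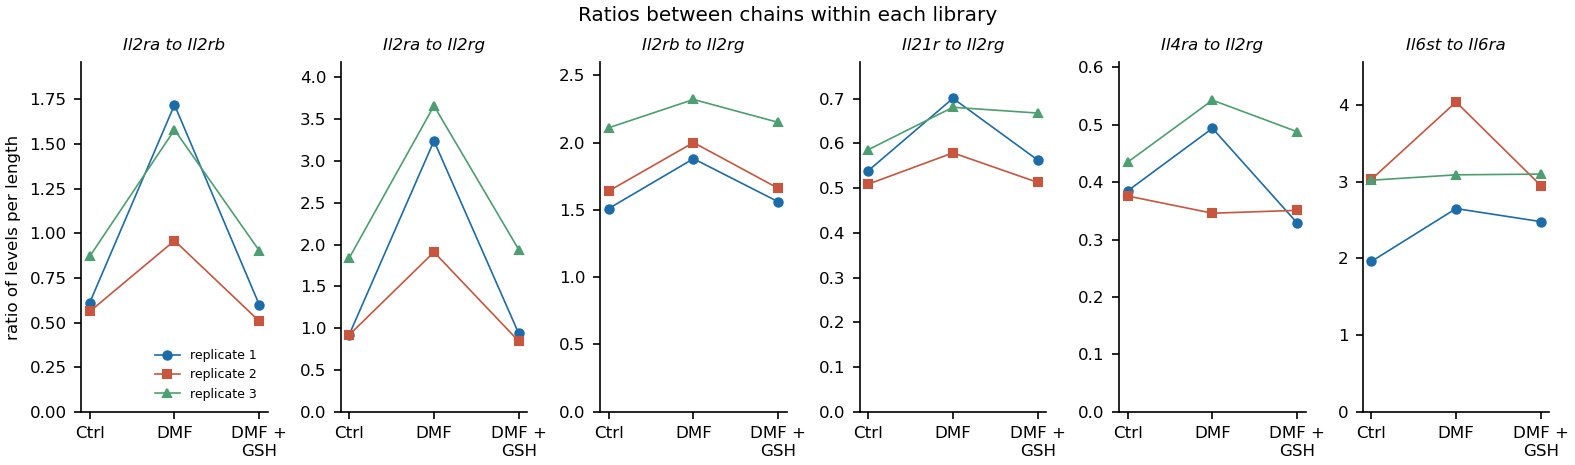
Ratio of the levels per length of pairs of receptor chains within each library, with lines joining libraries that share a replicate number. The Il2ra to Il2rb ratio is between 0.562 and 0.871 in Ctrl, between 0.959 and 1.72 in DMF and between 0.508 and 0.903 in DMF + GSH, while the Il6st to Il6ra ratio overlaps between all groups.

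Il4ra and Il21r, the chains that pair with the common gamma chain for IL-4 and IL-21, were not called in any comparison. Il21r had 2401, 2348 and 2159 normalized counts in Ctrl, 2496, 2293 and 2226 in DMF and 2452, 2314 and 2295 in DMF + GSH, with a log2 fold change of DMF against Ctrl of 0.02 (95% interval -0.11 to 0.16 with the batch term). Il4ra had 3096, 3128 and 2892 in Ctrl, 3174, 2476 and 3204 in DMF and 2592, 2857 and 3026 in DMF + GSH. Here the replicate numbers went different ways, at 0.04, -0.34 and 0.15 on the log2 scale for DMF against Ctrl, and the log2 fold change was -0.05 (95% interval -0.29 to 0.18).

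The chains of the IL-6 receptor were both lower in DMF. Il6ra, which binds IL-6 itself and is restricted to a few cell types, T cells among them, had 947, 697 and 506 normalized counts in Ctrl replicates 1 to 3, 534, 354 and 384 in DMF and 669, 582 and 438 in DMF + GSH. Within each replicate number DMF was the lowest and Ctrl the highest, although Ctrl replicate 3 lay below DMF replicate 1, so the groups overlapped. Il6ra fell by 0.73 on the log2 scale (SE 0.139, 1.66-fold lower, limma adjusted p = 0.00775 with the batch term and 6.53e-06 with the replicate block), and it was the only chain called in both fits. By replicate number the log2 fold changes were -0.82, -0.97 and -0.40. The smallest was that of replicate 3. Its library had the lowest Il6ra in Ctrl (506) and also in DMF + GSH (438), but not in DMF. The Ctrl library of replicate 3 also had the fewest reads (7671772) and stood apart by its myeloid markers. Whether either bears on Il6ra was not tested. Without that library the log2 fold change was -0.88. With the batch term the call was lost without any 1 of the DMF libraries, Ctrl replicates 1 or 2 or DMF + GSH replicate 1 (adjusted p = 0.011 to 0.0605), whereas with the replicate block it held in all 9 fits that each left out 1 library.

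Il6st encodes gp130, the signalling chain shared by IL-6, IL-27, LIF, oncostatin M and other cytokines. It had 2382, 2709 and 1961 normalized counts in Ctrl, 1821, 1840 and 1522 in DMF and 2127, 2203 and 1741 in DMF + GSH, and all DMF libraries were below all Ctrl libraries. The log2 fold change of DMF against Ctrl was -0.44 (1.35-fold lower; -0.39, -0.56 and -0.36 by replicate number). It was not called with the batch term (SE 0.13, limma adjusted p = 0.0327), and with the replicate block Il6st fell (SE 0.0556, adjusted p = 4.26e-06). DESeq2 on recovered reads, with the batch term, also called it (-0.46, adjusted p = 0.00717). The ratio of Il6st to Il6ra was 2.67 ± 0.614 in Ctrl and 3.26 ± 0.71 in DMF, a difference within the spread of the libraries in an unpaired exact permutation test (p = 0.4). By replicate number the ratio went from 1.96 to 2.65, from 3.03 to 4.04 and from 3.02 to 3.09, higher in DMF each time.

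With GSH, both IL-6 receptor chains stood between DMF and Ctrl within every replicate number. Comparing DMF + GSH with DMF, 0.819% of all genes tested were called with the batch term and 29.2% with the replicate block. With the batch term 0 of the 8 chains were called by limma, although 3 had an unadjusted p under 0.05, and edgeR and DESeq2 with the batch term also called 0. With the replicate block 3 were called. This comparison shares the DMF libraries with the one above, and the values are side by side with it. With the replicate block Il6ra rose by 0.41 on the log2 scale (adjusted p = 0.00227; 0.32, 0.71 and 0.19 by replicate number) and Il6st by 0.23 (adjusted p = 0.00307). The call of Il6ra was lost without DMF replicate 1 or 2 or DMF + GSH replicate 2 (adjusted p = 0.0109 to 0.0326), and that of Il6st without DMF replicate 2 or any DMF + GSH library (0.0128 to 0.0292), while Il2ra fell as given above. The difference of Il6ra with the batch term was 0.27 without DMF + GSH replicate 2 and 0.50 without DMF + GSH replicate 3, and that of Il6st 0.14 and 0.32. The remaining 5 chains had log2 fold changes from -0.45 (Il15ra) to 0.18 (Il2rg). The median over the 8 chains was -0.01, against 0.00 over all genes, and the median size of change was 0.20 against 0.21. The groups did not overlap for 1 chain, Il2ra, and for 38.3% of all genes tested. The sign was the same in all 3 replicate numbers for 5 chains and for 65.3% of all genes tested.

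Comparing DMF + GSH with Ctrl, 0% of all genes tested were called with the batch term (0 of 11599 by limma, with 222 at an unadjusted p under 0.05, and 0 by edgeR and DESeq2) and 0.0259% with the replicate block. None of the 8 chains was called in either fit, with 1 at an unadjusted p under 0.05 with the batch term and 2 with the replicate block. These were the IL-6 receptor chains. Il6ra remained 0.32 below Ctrl on the log2 scale (95% interval of the difference -0.63 to -0.01 with the batch term and -0.53 to -0.12 with the replicate block; limma adjusted p = 0.525 with the block), and it was lower in each replicate number (-0.50, -0.26 and -0.21). Il6st was 0.21 below Ctrl (95% interval -0.50 to 0.08 with the batch term and -0.33 to -0.09 with the replicate block, adjusted p = 0.347 with the block). The other 6 chains lay between -0.11 (Il4ra) and 0.12 (Il15ra). Il2ra lay -0.01, -0.16 and -0.02 from Ctrl by replicate number. In all, 4 chains (Il2ra, Il2rg, Il6ra and Il6st) had the same sign in all 3 numbers, each below Ctrl, as did 25.9% of all genes tested in either direction. Whether the chains differ in how close to Ctrl they lay with GSH was not tested.

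**Figure D4:**
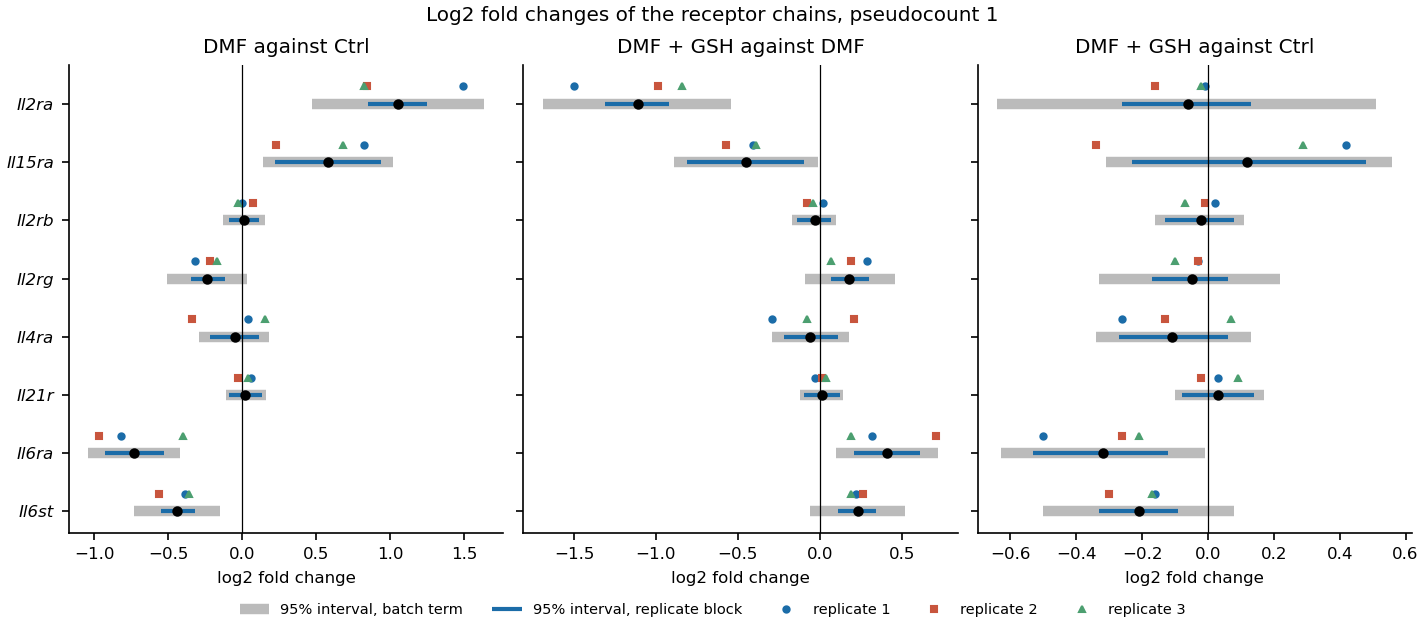
Log2 fold change of each receptor chain in the 3 comparisons, as a black point with 95% intervals from limma with the batch term (grey) and with the replicate block (blue); coloured marks are the differences within each replicate number. For DMF against Ctrl the interval with the block excludes 0 for Il2ra (0.85 to 1.25), Il15ra, Il2rg, Il6ra (-0.93 to -0.53) and Il6st, and intervals are not adjusted for the number of genes.

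Libraries differ in several transcripts at once, and the genes whose log2 values followed a chain most closely over the 9 libraries are named as a description. For Il2ra these were Nsun2 (Pearson r = 0.997), an RNA methyltransferase, Ptcd3 (0.995), a mitochondrial ribosome protein, and Wdr77 (0.995), a subunit of the PRMT5 methylosome. For Il6ra they were Hbp1 (0.989), Grap2 (0.973) and Smarca2 (0.960), and for Il6st Chd7 (0.992), Ankrd37 (0.975) and Trib2 (0.974). Il2rg was most like Traf1 (0.987), Shisa5 (0.986) and Gimap3 (0.986), and Il15ra most like Pigb (0.971), Abcc4 (0.971) and Zeb2 (0.961). Of the remaining chains, Il2rb was closest to Fem1b (0.972), Il12rb2 (0.954) and Rassf7 (0.946), Il21r to Gm28043 (0.963), Sult2b1 (0.937) and Ankrd61 (0.935), and Il4ra to Traf3 (0.911), Sgk1 (0.91) and Jmy (0.897). Among the chains themselves, Il2rg and Il6st ran together (0.92), as did Il6ra and Il6st (0.82). Il2ra ran opposite to Il2rg (-0.90) and Il6st (-0.84), and Il2rb opposite to Il21r (-0.85), both of them nearly level. The 9 libraries share 3 groups and 2 batches and are not independent points, hence no p is given.

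The other receptor chains of the same families were examined next. Of 10, 4 reached the minimum level, and all 4 had a negative log2 fold change in DMF. Il7r, the IL-7 receptor alpha chain that pairs with the common gamma chain, fell from 1535 ± 129 to 759 ± 207 normalized counts (log2 fold change -1.05, limma adjusted p = 0.00649 with the batch term). Il27ra, the partner of gp130 for IL-27, fell only with the replicate block, from 1744 ± 149 to 1383 ± 65.5 (log2 fold change -0.33, adjusted p = 0.000203, against 0.015 with the batch term). Lifr, Osmr, Cntfr, Il9r, Il13ra1 and Il13ra2 were below the minimum. In DMF + GSH against DMF, Il7r alone among the 4 was called with the replicate block (log2 fold change 0.79, adjusted p = 3.01e-06), where 29.2% of all genes were called.

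Most ligand genes were below the minimum level. Of 13, 4 were tested, and 2 fell with the batch term and 3 with the replicate block. Il21, the ligand of Il21r, fell from 437 ± 97.1 to 178 ± 64.4 normalized counts (log2 fold change -1.34, limma adjusted p = 0.00248) and rose with GSH (1.20 against DMF, adjusted p = 0.00646). Lif, a gp130 ligand, fell by 0.86 on the log2 scale (adjusted p = 0.00722) and Clcf1, another, by 0.69 with the replicate block only (adjusted p = 1.46e-05). Il2 (4.30 ± 3.62 in Ctrl), Il6 (0.474 ± 0.821) and Il15 (0.346 ± 0.600) were near 0. Il9, whose receptor uses the common gamma chain, was below the minimum over all libraries and not tested: its mean was 0.948 ± 1.64 in Ctrl, 27.0 ± 18.9 in DMF and 0.972 ± 1.68 in DMF + GSH.

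Of the 4 Janus kinases that act at these receptors, 2 fell in DMF with the batch term and 3 with the replicate block. Jak3, bound to the common gamma chain, went from 7028 ± 482 to 5389 ± 325 normalized counts (log2 fold change -0.38, limma adjusted p = 0.00933), and Jak2, bound to gp130 among others, from 2479 ± 191 to 1786 ± 130 (-0.47, adjusted p = 0.00911). Jak1, which serves all these receptors, fell by 0.27 with the replicate block only (adjusted p = 0.00032). With GSH, 3 of the 4 rose against DMF with the replicate block, where 29.2% of all genes were called, with Jak3 at 6840 ± 304. With the batch term, where 0.819% of all genes were called, limma called 0 of the 4, with 3 at an unadjusted p under 0.05 (adjusted p = 0.0135 for Jak2, 0.0161 for Jak3, 0.0828 for Jak1 and 0.401 for Tyk2). Of 5 STAT genes, 1 rose, with the replicate block only: Stat5a went from 1850 ± 75.4 to 2249 ± 235 (log2 fold change 0.28, adjusted p = 0.00239), while Stat3 (-0.06) and Stat5b (-0.12) were not called.

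Feedback inhibitors of the SOCS, PIAS and phosphatase families went both ways. Of 15 tested, 0 were called with the batch term by limma (7 had an unadjusted p under 0.05), and with the replicate block 4 rose and 3 fell, against 33.2% of all genes called in that fit. Socs3, which blocks gp130, went from 1109 ± 326 to 555 ± 121 normalized counts in DMF and to 967 ± 288 in DMF + GSH (log2 fold change of DMF against Ctrl -0.98, adjusted p = 1.5e-08 with the block and 0.0228 with the batch term). Cish, induced by STAT5, went from 1302 ± 94.4 to 1865 ± 432 (0.49, adjusted p = 0.000356 with the block), and Socs2, another such gene, from 1137 ± 336 to 1497 ± 318 (0.41, 0.000784). Pias3, an inhibitor of STAT3, fell by 0.49 (adjusted p = 0.000906 with the block). Adam10 and Adam17, proteases that shed IL-6 receptor from the cell surface, were not called in either fit.

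Genes known to respond to STAT5 were mostly higher in DMF. Of 15 tested, 5 rose and 1 fell with the batch term, and 9 rose and 1 fell with the replicate block. These counts, and those of the lists above, stand against 7.19% of all genes called with the batch term and 33.2% with the replicate block. Gzmb, the cytotoxic protease granzyme B, rose from 1766 ± 731 to 7126 ± 232 normalized counts (log2 fold change 2.09, limma adjusted p = 0.00188), Lta, encoding lymphotoxin alpha, from 259 ± 44.1 to 1239 ± 639 (2.11, 0.00739), and Myc from 2173 ± 193 to 3986 ± 625 (0.87, 0.00554). Ctla4, an inhibitory receptor, fell from 6571 ± 1069 to 3752 ± 181 (-0.80, 0.00336). The median log2 fold change of this list was 0.41, against 0.01 over all genes. Of 9 STAT3 response genes, 5 fell with the batch term and 7 with the replicate block, none rose, and the median log2 fold change was -0.76. Maf, a transcription factor of IL-21- and IL-10-producing T cells, fell from 3257 ± 238 to 2027 ± 408 normalized counts (-0.70, limma adjusted p = 0.00423), and Bcl3, an NF-κB cofactor, from 1260 ± 134 to 747 ± 117 (-0.76, 0.00813), beside Il21 and Socs3 given above. Many of these genes also respond to T cell receptor, NF-κB and metabolic signals, so their lists name a known response and do not measure a STAT. The lists were chosen with earlier results of these data known, so their counts and medians are a description and no test of a pathway. With GSH added, 9 STAT5 response genes fell and 1 rose against DMF and 7 STAT3 response genes rose, with the replicate block, where 29.2% of all genes were called. With the batch term, where 0.819% were called, 2 STAT5 response genes fell and 1 rose, and 1 STAT3 response gene rose. In DMF + GSH against Ctrl 0 genes of any list were called by limma in either fit.

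**Figure D5:**
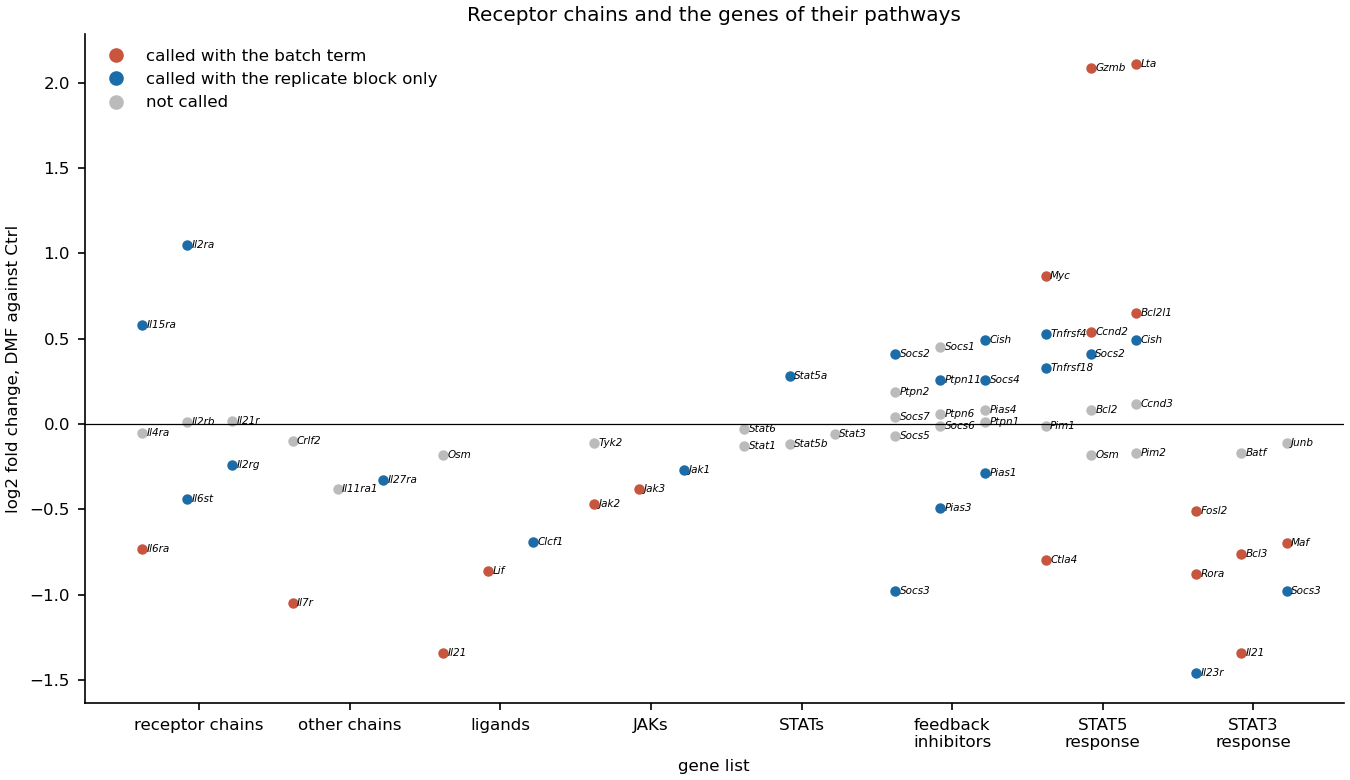
Log2 fold change of DMF against Ctrl for the receptor chains and the genes of their pathways that reached the minimum level, 1 point per gene, spread sideways only for legibility and coloured by the fit that called it (limma, adjusted p below 0.01). STAT5 response genes lie mostly above 0 (median 0.41), STAT3 response genes all below 0 (median -0.76), and the receptor chains on both sides (median -0.02). The lists were chosen with earlier results of these data known, so the medians are a description.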

How the data were processed

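RNA from 9 samples (3 each of Ctrl, DMF and DMF + GSH) was made into poly(A)-selected libraries with a kit that does not mark strand and sequenced as single 50-base reads. The authors aligned the reads to GRCm38 with STAR 2.4.0b, counted them per gene and deposited counts divided by size factors, a signal whose whole reads could be recovered (100% of values above 0 were whole within 0.01). The deposited table also holds the authors' own comparison (fold changes and statistics as a score, p-values and adjusted p-values), which was not used.

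Here log2(normalized count + 1) of genes with a mean of at least 10 was fitted with limma 3.58.1 (R 4.3.3, trend and Benjamini-Hochberg adjustment over 11599 genes), with group and batch as terms. Deviations from the group means were correlated between same-numbered libraries (r from 0.447 to 0.578 in 9 of 9 pairs, against -0.471 to -0.0621 for different numbers). The deviations of a group sum to 0, so the negative values follow in part from the positive ones and are no separate evidence. Number 1 is also batch 1 in every group. The numbers were taken to pair the samples, and values with the replicate block are given where a call changes. Ratios were tested by exact permutation. RPKM used recovered reads and the union of exons. Alternatives were another pseudocount, minimum or scaling, no batch term, the block, voom, edgeR 4.0.16 and DESeq2 1.42.0 on recovered reads, and leaving out each library. The 95% intervals come from limma and cover the spread between these libraries.

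Genes named were the 8 chains, up to 4 called genes per list with the smallest adjusted p under the block, and the 3 genes most correlated with each chain. All other genes named, Cd3e among them, were chosen after their values were seen. The chains and gene lists were chosen with earlier results of these data known. One item of the gene lists is not reported here, and the counts leave it out.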

Additional observations from a re-analysis of the deposited data

How the results depend on the processing

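Of the log2 fold changes of the 8 chains under all alternatives, 590 kept their direction and their side of the threshold, 71 kept the direction and passed it newly, 8 (all Il6ra, DMF against Ctrl, from -0.76 to -0.63) no longer passed it, and 27 turned sign, all in fits that left out 1 library and none of a called difference. For DMF against Ctrl, 834 genes and 1 chain were called, and with the replicate block 3848 and 5, with edgeR and the replicate block 3850 and 4, with DESeq2 1905 and 2, with only the 2 groups compared 48 and 0, without the batch term 583 and 0, and without a minimum level 1162 and 2. For DMF + GSH against DMF, 95 genes and 0 chains were called, and with the replicate block 3391 and 3, with edgeR and the block 3446 and 4, with DESeq2 1500 and 0, with only the 2 groups 5 and 0, without the batch term 34 and 0, and without a minimum 667 and 1. For DMF + GSH against Ctrl, 0 genes were called, 3 with the replicate block and 4 with edgeR and the block, and 0 chains in each. Leaving out 1 library with the batch term gave 2 (without Ctrl replicate 1) to 1512 genes (without Ctrl replicate 3) and 0 to 2 chains for DMF against Ctrl, and 0 (without DMF replicate 3) to 983 genes (without DMF + GSH replicate 3) and 0 to 1 chains for DMF + GSH against DMF. With the replicate block it gave 2731 to 4043 genes and 3 to 5 chains, and 2314 to 3374 genes and 1 to 4 chains, and for DMF + GSH against Ctrl 0 to 6 genes. The cause was not tested.

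The signs that turned when a library was left out were those of Il2rb (-0.02 to 0.03), Il4ra (-0.14 to 0.09) and Il21r (-0.01 to 0.06) for DMF against Ctrl, of Il4ra (-0.19 to 0.04) and Il21r (-0.01 to 0.03) for DMF + GSH against DMF, and of Il2ra (-0.31 to 0.17), Il2rb (-0.05 to 0.00), Il2rg (-0.15 to 0.06) and Il15ra (-0.01 to 0.36) for DMF + GSH against Ctrl. The 6 ratios between chains kept their direction under each alternative run. With the length of the longest transcript in place of all exons, the Ctrl level of Il2ra was 181, of Il2rg 169 and of Il15ra 2.67 RPKM, and the order of the chains was the same. Depth limits Il15ra most.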
